A study of Mus musculus with 11 samples.

Results

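Residual expression of 8 genes of the formative and primed epiblast was measured in mouse embryonic stem cells held in a medium for the naive state, in 11 lines that each grew from a single colony. The genes were Otx2, Zic2, Zic5, Sox3, Sox4, Utf1, Fgf4 and Fgf5. They were taken by name, and all 8 of the 8 were found among the 22369 genes of the count table. Messenger RNA came from 1 library per clone, and the clones, 16 to 26 in the labels, form 1 group with no treatment to compare. The parental line was EBRTcH3, which makes the tetracycline-controlled transactivator from the ROSA26 promoter. All clones carried several barcoded piggyBac reporters driven by the mouse PGK promoter, and all came from cells sorted for high eGFP. They were cultured in medium conditioned by BRL cells with leukemia inhibitory factor (LIF), the MEK inhibitor PD0325901 and the GSK-3 inhibitor CHIR99021. No clone was sequenced more than once, so the spread between clones also holds the spread between libraries.

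When epiblast cells leave the naive state they pass through a formative phase and then become primed, that is, ready to form the germ layers. FGF ligands act through MEK and ERK kinases in this step, and a MEK inhibitor holds it back. Otx2 is a homeobox factor that redirects Pou5f1 to new enhancers in this transition. The zinc finger factors Zic2 and Zic5 and the HMG-box factors Sox3 and Sox4 are used in the epiblast and later in neural tissue. Utf1 is a chromatin-bound protein of pluripotent cells. Fgf4 is the FGF ligand that embryonic stem cells make themselves, and Fgf5 is a standard marker of the primed epiblast.

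Counts in genes ran from 10846005 to 16868500 per library, and 15910 to 16634 genes had at least 1 count. Levels are CPM, read counts scaled to a common library total, with library totals scaled by the trimmed mean of M-values (TMM), and the detection floor of 3 counts was 0.173 to 0.284 CPM. The cells carried the defining markers of pluripotent cells in all clones: Pou5f1 stood at 769 to 970 CPM, Sox2 at 718 to 1062 and Sall4 at 387 to 570. The naive genes with the highest mean, Tfcp2l1 (1971 ± 423 CPM), Esrrb (1387.5 ± 176) and Zfp42 (974 ± 218; SD, n = 11), were likewise abundant.

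Promoters of 6 of the 8 genes were matched in the RefSeq table (GRCm38.p6). The 4 below are shown because Otx2 and Sox4 each correlated with Sox3 across clones, and because Fgf4 and Utf1 stood at opposite ends in a pair of clones. Zic5 also correlated with Sox3, and its promoter and that of Fgf5 were matched but are not shown. Each is the 250 bases before the start, 5′ to 3′, at the most upstream of the listed starts (4 for Otx2). Capitals mark matches on either strand. The letters searched were those of the E-box core (CACGTG) and the octamer bound by Pou5f1 and its relatives (ATGCAAAT). The TATA box was searched as TATAAA and the CCAAT box by the letters of its name. The GC box of the SP factors was searched as GGGCGG, and the core of the sites of KLF factors as CACCC.
Otx2, chr14:48667645-48667894, minus strand: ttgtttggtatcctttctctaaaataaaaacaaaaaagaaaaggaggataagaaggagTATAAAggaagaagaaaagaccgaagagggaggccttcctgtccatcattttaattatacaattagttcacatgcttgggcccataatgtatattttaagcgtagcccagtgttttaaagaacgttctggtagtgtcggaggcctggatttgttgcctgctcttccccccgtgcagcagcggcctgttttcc
Sox4, chr13:28953700-28953949, minus strand: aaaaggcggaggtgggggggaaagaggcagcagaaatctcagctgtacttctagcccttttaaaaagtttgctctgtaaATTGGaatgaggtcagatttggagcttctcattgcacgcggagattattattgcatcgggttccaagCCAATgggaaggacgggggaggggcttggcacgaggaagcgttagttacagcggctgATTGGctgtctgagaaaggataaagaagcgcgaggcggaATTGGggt
Fgf4, chr7:144861136-144861385, plus strand: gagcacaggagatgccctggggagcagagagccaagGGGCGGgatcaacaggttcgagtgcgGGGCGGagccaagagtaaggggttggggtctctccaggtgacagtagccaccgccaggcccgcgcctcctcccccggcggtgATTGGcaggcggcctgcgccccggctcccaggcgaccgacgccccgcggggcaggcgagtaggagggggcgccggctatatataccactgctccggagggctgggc
Utf1, chr7:139943606-139943855, plus strand: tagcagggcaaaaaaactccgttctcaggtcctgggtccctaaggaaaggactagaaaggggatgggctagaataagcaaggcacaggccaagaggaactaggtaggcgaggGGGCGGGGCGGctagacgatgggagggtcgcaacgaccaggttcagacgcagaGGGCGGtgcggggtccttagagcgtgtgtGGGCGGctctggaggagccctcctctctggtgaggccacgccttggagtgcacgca
The Otx2 window held 1 match, to the TATA box letters 192 bases before the start, and 42.0% of its bases were G or C. The Sox4 window held 4 CCAAT matches. Fgf4 and Utf1 shared the GC box letters, with 2 matches in Fgf4 and 4 in Utf1, of which 2 overlap. Fgf4 also held 1 CCAAT match, and 71.2% of its window and 61.6% of that of Utf1 were G or C against a median of 52.4% over all promoters. Among 32851 promoters of this length, 12.4% held the TATA box letters, 33.8% CCAAT, 32.7% the GC box, 52.0% CACCC, 6.02% CACGTG and 1.60% ATGCAAAT. These matches are letters in a window and were not tied to binding in these cells.

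The 8 genes spanned a wide range of levels. Per kilobase of exon, Utf1 had the highest mean at 137 CPM, followed by Fgf4 at 79.4, Zic2 at 21.9, Otx2 at 12.1, Zic5 at 5.67, Sox3 at 0.902, Sox4 at 0.878 and Fgf5 at 0.163. Utf1 was above Fgf4 in 9 of 11 clones and Zic2 above Otx2 in 10, with overlapping ranges. Sox3 was above Sox4 in 5 of 11 clones, so this pair had no order. The steps from Fgf4 to Zic2 and from Zic5 to Sox3 were the only ones between neighbours in this order with ranges that did not overlap. Without scaling to exon length, levels in single clones in naive medium ran from under the floor, for Fgf5 and Sox3, up to 345 CPM for Fgf4.

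**Figure D1:**
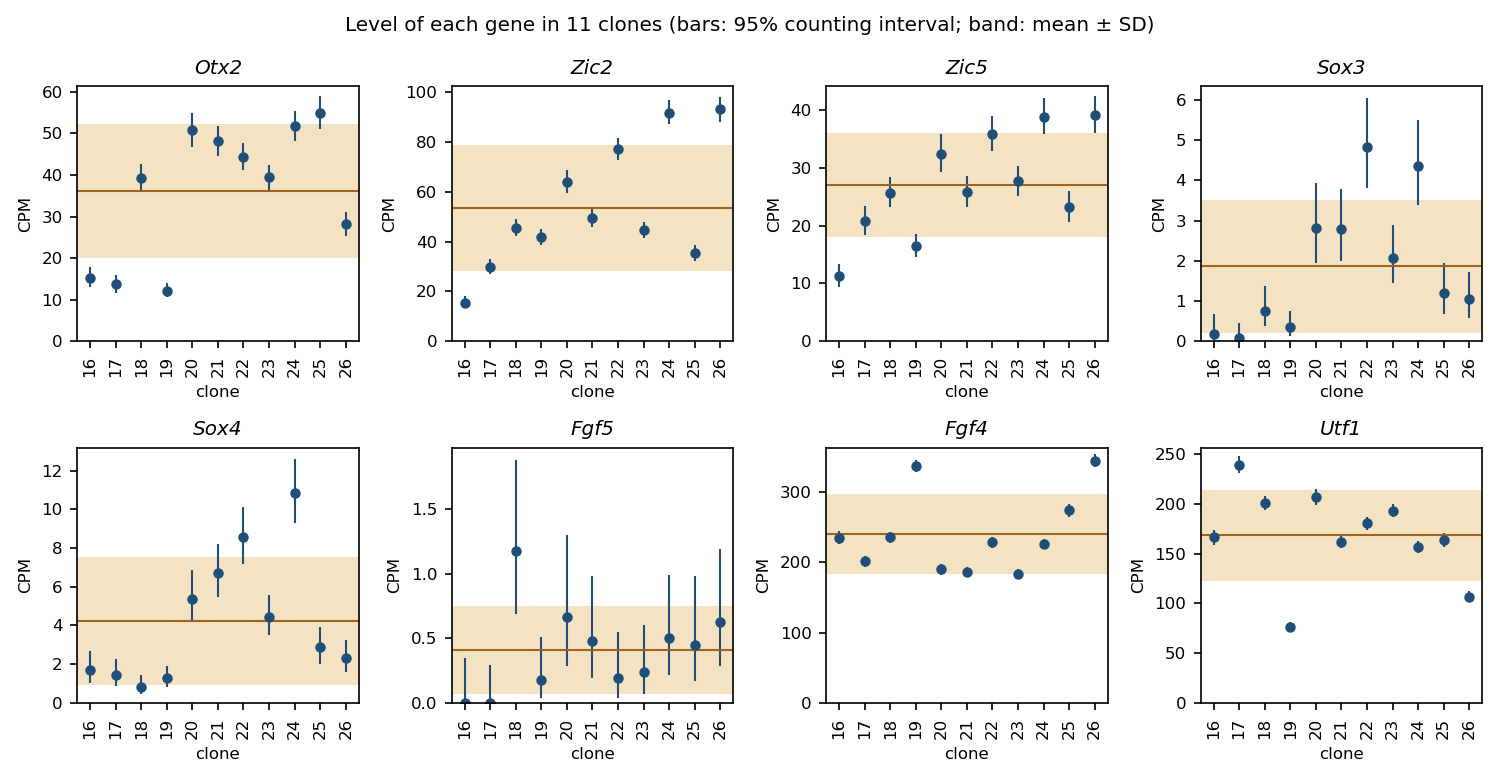
Level of each of the 8 genes in CPM (y axis, from 0) in clones 16 to 26 (x axis). Points are single libraries with a 95% Poisson interval for counting error, the line is the mean and the band the SD over 11 clones; Otx2 is lowest in clones 16, 17 and 19, and Fgf4 highest with Utf1 lowest in clones 19 and 26.

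Most of the genes varied between clones more than genes of like abundance. A goodness-of-fit test in edgeR set each gene's spread against the dispersion trend of all genes, and 5 of the 7 members that averaged 1 CPM or more passed at a Benjamini-Hochberg adjusted p of 0.05, where 7.68% of all 12479 tested genes did. The 5 were Zic2, Otx2, Sox3, Sox4 and Utf1. The median deviance per degree of freedom, a measure of spread beyond the fitted trend, was 3.82 over the 7 genes and 0.551 over all tested genes. Zic5 was just outside the threshold (adjusted p = 0.0531), Fgf4 further out (adjusted p = 0.387), and Fgf5 was too low to be tested. The members were named with earlier results of these data known, so this count is a description of them. The plot of spread against abundance places all 7 in the upper part of the cloud.

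**Figure D2:**
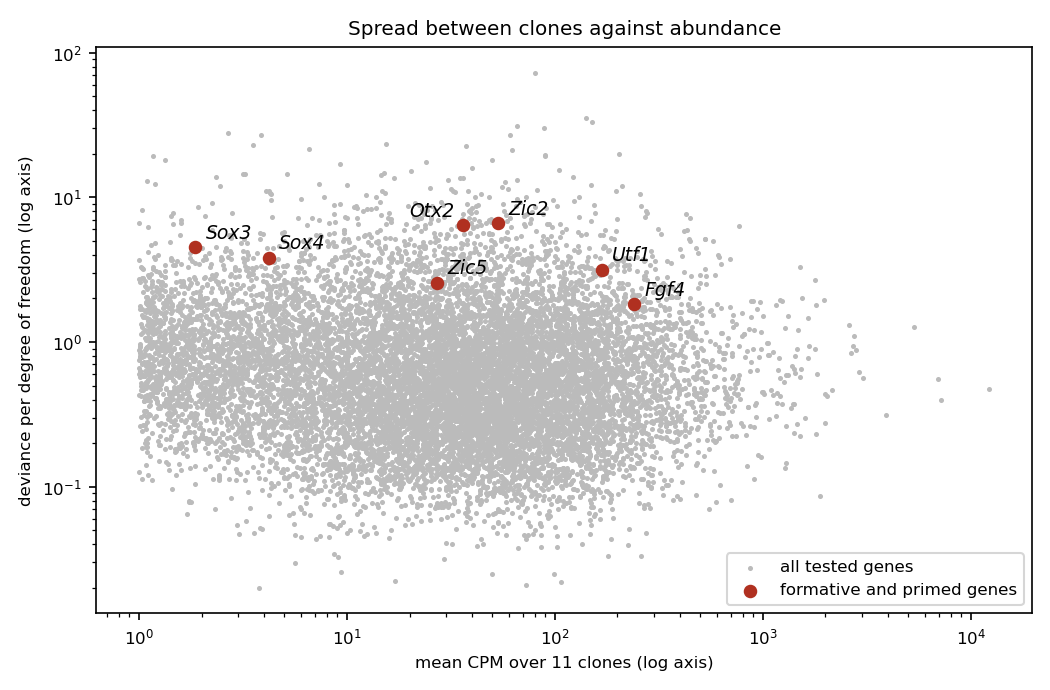
Deviance per degree of freedom of the edgeR fit (y axis, log) against mean CPM over 11 clones (x axis, log) for 12479 tested genes (grey) and the 7 tested formative and primed genes (red). Zic2 (6.65) and Otx2 (6.40) lie highest among the 7 and Fgf4 (1.82) lowest.

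Otx2 was low in 3 of the clones. Its level was lowest in clone 19 at 12.2 CPM, had a median of 39.4 and was highest in clone 25 at 54.9. Clones 16 (15.3 CPM) and 17 (13.7) sat beside clone 19, clone 26 came next at 28.1, and the other 7 clones lay at 39.3 or above. The mean was 36.2 ± 16.2 CPM (SD, n = 11), and 1.52% of tested genes had a larger deviance (edgeR adjusted p = 4.19e-08, 8.91e-09 to 0.681 over 18 alternatives). The call rests on the low clones: with clones 16, 17 and 19 left out together, a setting added after the data were seen, the adjusted p was 0.681, with 5.34% of all genes called. A lincRNA gene, Otx2os1, overlaps Otx2 on the opposite strand in the annotation, and the sources used here do not say whether reads were counted by strand.

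Zic2 and Zic5, which are immediate neighbours on chromosome 14, moved together. Zic2 was lowest in clone 16 at 15.4 CPM, had a median of 45.5 and was highest in clone 26 at 93.0, with clone 24 at 91.8. Zic5 was lowest in the same clone 16 at 11.3 CPM, had a median of 25.8 and was highest in the same clone 26 at 39.2, with clone 24 at 38.9. Their means were 53.4 ± 25.2 and 27.05 ± 9.01 CPM (SD, n = 11). Zic2 passed the edgeR test (adjusted p = 1.46e-08, 5.32e-10 to 0.000350 over 18 alternatives). Zic5 missed it (0.0531), with 0.0234 to 1 over the alternatives, and passed in 3 of the 18: without clone 17, without clone 21 and with the dispersion trend of DESeq2 (adjusted p = 0.0269, with 8.26% of all genes called).

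The genes around Zic2 and Zic5 were low in some of the same clones. Zic2 and Zic5 have only 4 and 5 tested genes after them at the end of chromosome 14, and their surroundings were low as a whole in 3 clones. Over up to 25 tested genes on each side, the median shift of log2(CPM + 1) from the median clone was -0.96 in clone 16, -0.59 in clone 17 and -0.78 in clone 19 around Zic2, and between 0.00 and 0.12 in the other 8. Pcca, the nearest tested gene beyond Zic2, was at -0.99, -0.59 and -0.60 in these clones. Set against its neighbours, Zic2 was at -0.54 in clone 16, 0.00 in clone 17 and 0.66 in clone 19. It remained high in clones 22 (0.747), 24 (0.997) and 26 (0.94), and was at 0.37 in clone 20 and -0.39 in clone 25. Zic5 against its neighbours ranged from -0.18 in clones 16 and 25 to 0.57 in clone 24. With this neighbour correction in the edgeR fit, Zic2 still varied (adjusted p = 0.000105) while Zic5 did not pass (adjusted p = 1), with 7.85% of all genes called.

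Otx2 lies elsewhere on chromosome 14, and its surroundings moved far less than it did. The median of the neighbours of Otx2 was at -0.02 in clone 16, -0.08 in clone 17 and -0.13 in clone 19, while Otx2 itself was at -1.31, -1.46 and -1.62. Tmem260, the nearest tested gene before Otx2, was also low in these clones, at -0.21, -0.46 and -0.50, and Exoc5, the nearest after it, was at 0.01, -0.34 and 0.00. The adjusted p of Otx2 with the neighbour correction was 8.91e-09. Among the members on other chromosomes, the farthest shift of the surroundings was -0.20, around Fgf4 in clone 17.

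**Figure D3:**
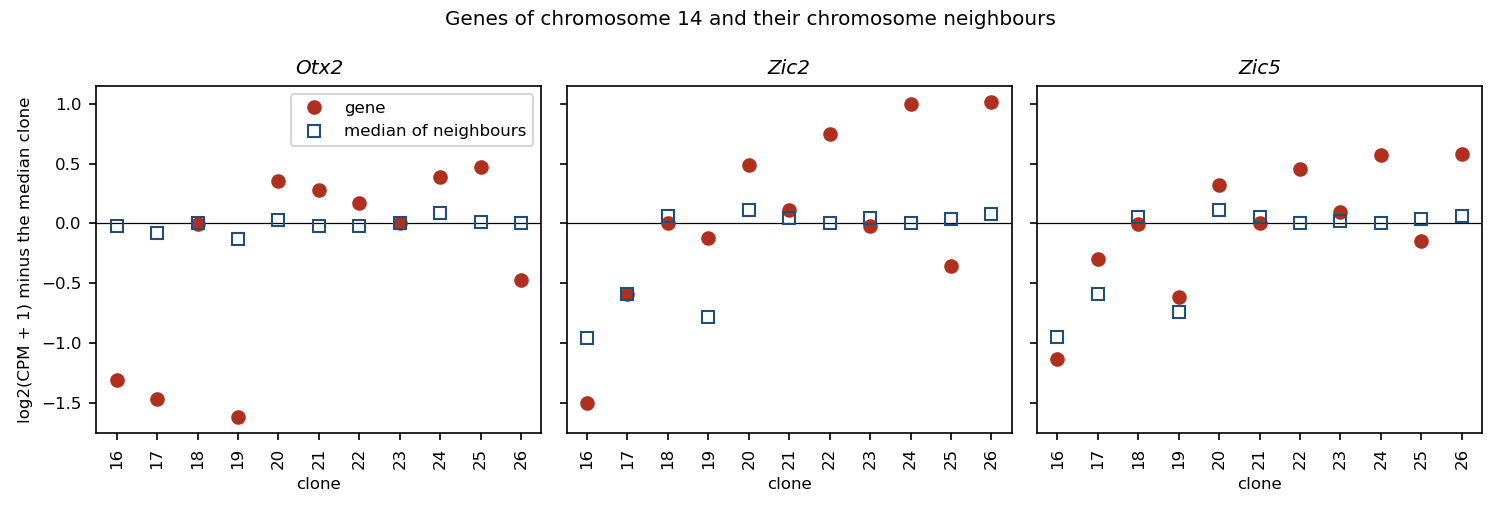
Difference of log2(CPM + 1) from the median clone (y axis) in clones 16 to 26 (x axis) for Otx2, Zic2 and Zic5 (red circles) and the median of up to 25 tested genes on each side (blue squares). In clones 16, 17 and 19 the neighbours of Zic2 and Zic5 are low by 0.59 or more, and those of Otx2 by at most 0.13.

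Sox3 and Sox4 were low and changed in step. Sox3, a SoxB1 factor like Sox2, was lowest in clone 17 at 0.0795 CPM, a single read, had a median of 1.20 and was highest in clone 22 at 4.84 CPM (77 reads). Clones 16 (2 reads) and 17 were at or under the floor of 3 reads, and clone 19 held 6. Sox4, a SoxC factor on chromosome 13, was lowest in clone 18 at 0.831 CPM (12 reads), had a median of 2.86 and was highest in clone 24 at 10.8 CPM (172 reads). Clones 16 to 19 were the lowest 4 of 11 for both genes, and clones 20 to 24 the highest 5. The 95% Poisson interval of Sox3 in clone 19, which covers counting error only, reached up to 0.754 CPM, and that in clone 22 started at 3.82. Sox3 (1.86 ± 1.66 CPM, SD, n = 11) and Sox4 (4.21 ± 3.32) both passed the edgeR test, with adjusted p = 6.38e-05 and 0.000883. Over the alternatives these ran from 2.31e-13 to 0.0871 for Sox3, the highest without clones 16, 17 and 19, and from 2.17e-11 to 0.0150 for Sox4. A lincRNA gene, Gm26735, overlaps Sox4 on the opposite strand.

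Utf1 was among the abundant members. Its level was lowest in clone 19 at 76.6 CPM, had a median of 166 and was highest in clone 17 at 239. Clone 26 was second lowest at 107 CPM, and the other 9 clones lay between 156 and 239. The mean was 168 ± 45.6 CPM (SD, n = 11; edgeR adjusted p = 0.00811, 0.00122 to 0.684 over 18 alternatives). Without clone 19 the adjusted p was 0.471. With all clones kept and 1 common edgeR dispersion in place of the trend it was 0.684, where 1328 of 12479 genes were called. The call thus depends on that 1 library and on the dispersion used. Kndc1, the nearest tested gene before Utf1, was also low in clone 19, at -1.03 from its median clone, while the median of 50 neighbours was -0.02.

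Of the ligands, Fgf4 was the steadiest of the tested members. It was lowest in clone 23 at 184 CPM, had a median of 229 and was highest in clone 26 at 345, with clone 19 at 338 and clone 25 at 274. The mean was 240 ± 56.6 CPM (SD, n = 11), and the edgeR test gave adjusted p = 0.387, with 0.0777 to 1 over 18 alternatives. Its coefficient of variation was 23.6%, against 27.1% for Utf1, 44.7% for Otx2 and 88.9% for Sox3.

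Fgf5 was at or near the detection floor. It had 65 reads over all 11 libraries, with 0 reads in clones 16 and 17, a median of 0.451 CPM and a highest level of 1.18 CPM in clone 18 (17 reads). In clones 16 and 17 the floor of 3 reads was 0.284 and 0.238 CPM, and the 95% Poisson interval of a count of 0 reached 0.349 and 0.293 CPM. In 7 of 11 clones the count exceeded 3. The 95% Poisson interval in clone 18, 0.686 to 1.88 CPM, lay above those of clones 16, 17, 19, 22 and 23, which ended at 0.606 or below. It overlapped those of clones 20, 21, 24, 25 and 26 (0.288 to 1.20 in clone 26). The intervals of the clones other than 18 all overlapped each other, some only barely: that of clone 17 ended at 0.293 CPM and that of clone 26 started at 0.288. Overlap of intervals does not test a difference between 2 clones, and an order among these clones was not tested. Without a filter on low genes, Fgf5 did not pass the edgeR test (adjusted p = 0.242).

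Whether 1 clone differed from the other 10 depended on the test. Each comparison sets 1 library against 10, so the spread comes from the other clones alone and the lone library is assumed to vary like them. By edgeR's quasi-likelihood test, of 77 pairs of gene and clone 0 were called, against 0.213% of 137269 pairs over all genes, and 6 had an unadjusted p under 0.05. The smallest adjusted p was 0.252, for Utf1 in clone 19 (log2 fold change -1.21 ± 0.32, SE). The DESeq2 Wald test called 2 of the 77, where it called 1.05% of all pairs: Utf1 in clone 19 (log2 fold change -1.21, adjusted p = 0.00976) and Zic2 in clone 16 (-1.90, adjusted p = 0.0427). Both are the lowest clones named above.

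Across clones Otx2, Zic2, Zic5, Sox3 and Sox4 tended to rise and fall together. Fgf4 and Utf1 stood at opposite ends in clones 19 and 26. Pearson's r of log2(CPM + 1) was computed for the 28 pairs over 11 clones that share a parental line, with 100000 permutations and Benjamini-Hochberg adjustment over the 28. The 10 pairs among Otx2, Zic2, Zic5, Sox3 and Sox4 had r from 0.56 to 0.94, and 5 of them passed. Of the 12 pairs of Fgf4 or Utf1 with another gene 0 passed (r from -0.43 to 0.34), and of the 7 pairs with Fgf5 0 passed (0.03 to 0.63). This split of the genes was not among the planned tests, and its counts only describe the same 28 values. In all, 6 of 28 passed by Pearson's r, 2 by Spearman's rho, and 10 had an unadjusted p under 0.05. With clones 16, 17 and 19 left out together, 2 of 28 passed by r, Zic2 with Zic5 and Sox3 with Sox4. In that setting Otx2 with Zic5 had r = -0.35. An absolute r of at least 0.7 was reached by 7 of the 28 pairs, against 7.39% of 99825 pairs of a member with any tested gene, for all 8 together. Taken singly this share was 16.1% for Otx2, 5.38% for Zic2, 9.39% for Zic5, 11.9% for Sox3, 7.2% for Sox4, 1.35% for Fgf5, 3.58% for Fgf4 and 4.22% for Utf1.

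**Figure D4:**
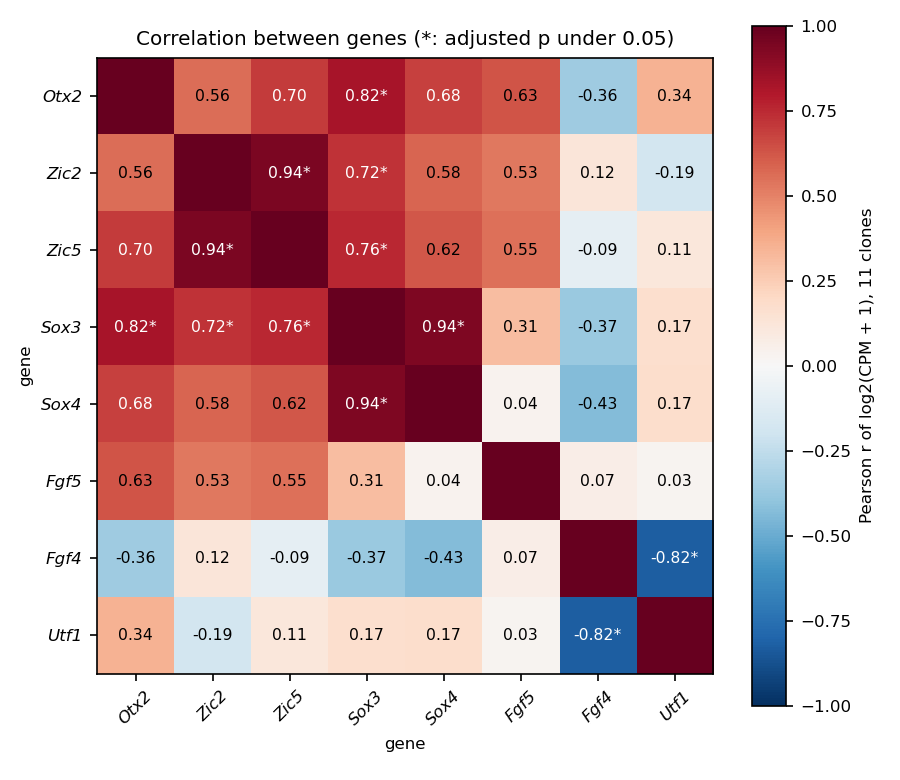
Pearson's r of log2(CPM + 1) over 11 clones for each pair of the 8 genes (both axes), from -1 (blue) to 1 (red), with an asterisk where the permutation p adjusted over 28 pairs is under 0.05. Otx2, Zic2, Zic5, Sox3 and Sox4 form a block of positive values, and Fgf4 with Utf1 is the most negative pair at -0.82.

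The firmest relations joined genes of 1 family. Zic2 with Zic5 had r = 0.94 (permutation p = 4e-05, adjusted p = 0.00112) and rho = 0.95 (adjusted p = 0.00224), and r = 0.85 without clones 16 and 26, which lie farthest from the median of Zic2. With the neighbour correction r was 0.89 (adjusted p = 0.00798), and without clones 16, 17 and 19 it was 0.98. Sox3 with Sox4, on different chromosomes, had r = 0.94 (permutation p = 8e-05, adjusted p = 0.00112) and rho = 0.90 (adjusted p = 0.00616), and r = 0.89 without clones 22 and 24. Of all tested genes, Sox3 ranked 3 of 12478 by r with Sox4, and Zic5 ranked 1 of 12478 by r with Zic2. In the other direction, Sox4 ranked 10 by r with Sox3, and Zic2 ranked 3 by r with Zic5. Both relations passed in all 16 alternatives, with adjusted p from 0.000280 to 0.0147 for the Zic pair and from 0.000280 to 0.00737 for the Sox pair.

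Relations between the families had lower r and most depended on a few clones. Otx2 with Sox3 had r = 0.82 (permutation p = 0.00185, adjusted p = 0.0173), rho = 0.77 (adjusted p = 0.0741) and r = 0.72 without clones 17 and 19. Zic5 with Sox3 had r = 0.76 (permutation p = 0.00556, adjusted p = 0.0311) and rho = 0.75 (adjusted p = 0.0759), and Zic2 with Sox3 r = 0.72 (permutation p = 0.0104, adjusted p = 0.0487) and rho = 0.72 (adjusted p = 0.0761). Without the 2 clones farthest out, r was 0.66 for Zic5 with Sox3 and 0.88 for Zic2 with Sox3. In the 8 clones other than 16, 17 and 19, r was 0.47 for each of these 3 pairs, with adjusted p = 0.458 by an exact permutation test. With the neighbour correction r was 0.80 for Otx2 with Sox3 (adjusted p = 0.0282), 0.50 for Zic2 with Sox3 and 0.47 for Zic5 with Sox3 (adjusted p = 0.356 for both). Otx2 with Sox3 passed in 14 of 16 alternatives, Zic5 with Sox3 in 7 and Zic2 with Sox3 in 3, and the latter missed the threshold without any 1 of clones 16 to 25. Zic5 with Sox3 missed it without clone 16, 19, 20, 22, 23 or 24. Otx2 with Zic5 (r = 0.70, adjusted p = 0.0653; rho = 0.48) did not pass, had r = 0.06 with the neighbour correction and turned to -0.35 in the 8 clones.

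Fgf4 and Utf1 went in opposite directions, and this rests on clones 19 and 26. Their r was -0.82 (permutation p = 0.00261, adjusted p = 0.0183), while rho was -0.53 (adjusted p = 0.255). Without clones 19 and 26 r was -0.39, and without clone 19 alone it was -0.76 and missed the threshold. In clone 19 Fgf4 was at 338 and Utf1 at 76.6 CPM, and in clone 26 they were at 345 and 107, whereas in the other 9 clones Fgf4 spanned 184 to 274 and Utf1 156 to 239. By r with Utf1, Fgf4 ranked 42 from the lowest of 12478 tested genes.

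**Figure D5:**
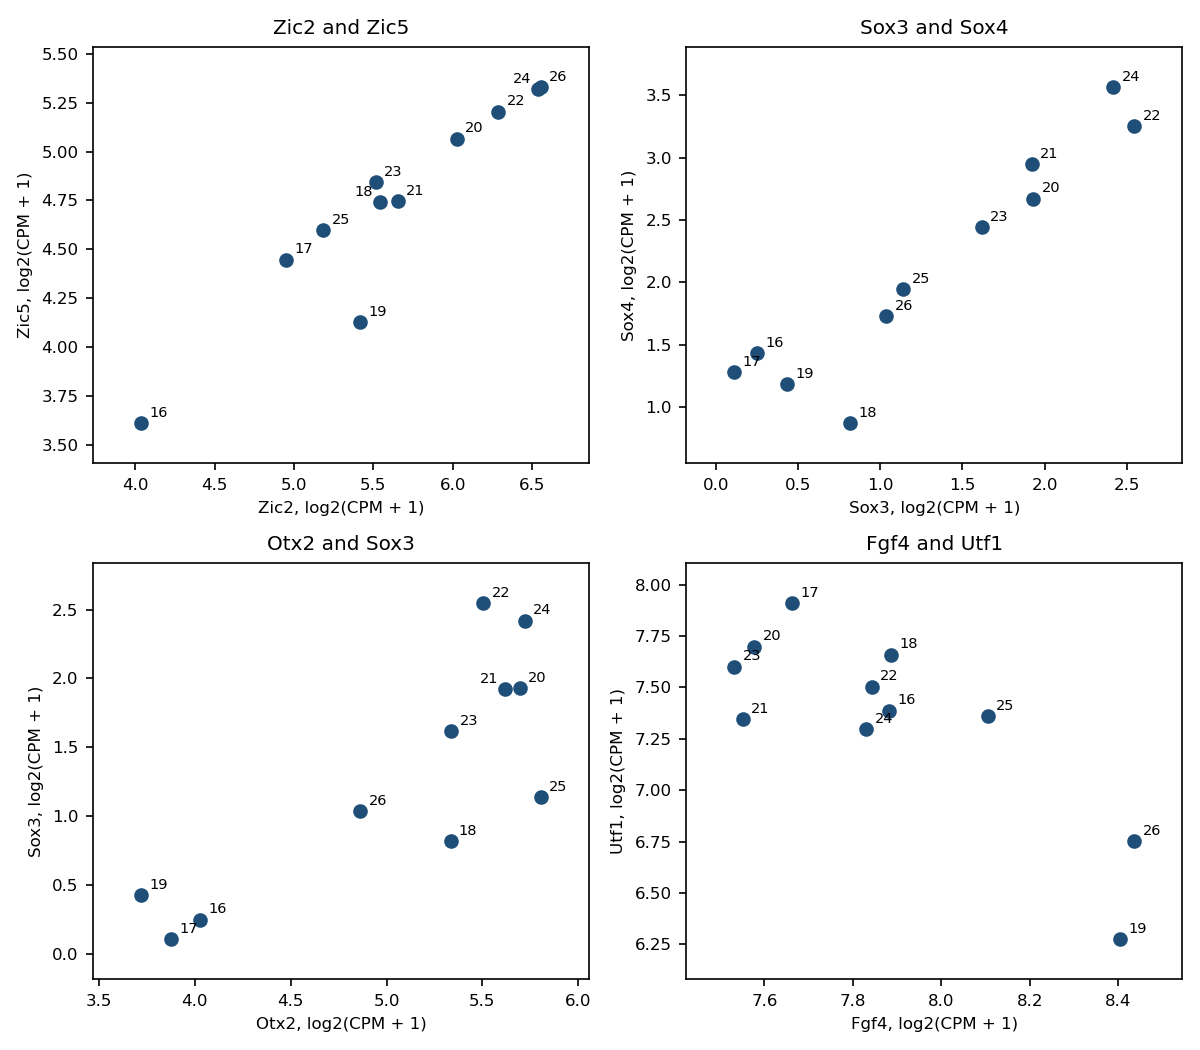
Level of 1 gene against another in log2(CPM + 1) on both axes for 4 pairs, with each of the 11 clones labelled. Zic2 with Zic5 and Sox3 with Sox4 lie near a line in most clones (clone 19 is off it for the Zic pair and clone 18 for the Sox pair), Otx2 with Sox3 has clones 16, 17 and 19 at the low end, and Fgf4 with Utf1 has clones 19 and 26 apart from the rest.

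The genes that respond to ERK signalling were the next comparison, since the medium blocks MEK. A score was formed as the mean, centred per gene, of log2(CPM + 1) over the 10 tested members of a list of ERK feedback inhibitors, ETS factors and the immediate early genes Fos and Ier3. The score was -1.48 in clone 19 and -0.72 in clone 26, and 0.02 to 0.41 in the others. Fgf4 had r = -0.82 with it (permutation p = 0.00323, adjusted p = 0.0305 over 16 relations, rho = -0.60, adjusted p = 0.226) and Utf1 r = 0.89 (permutation p = 0.00572, adjusted p = 0.0305, rho = 0.40, adjusted p = 0.517). Without clones 19 and 26 r was -0.41 for Fgf4 and -0.13 for Utf1, so both relations rest on those clones. Each also missed the threshold when clone 19, 25 or 26 alone was left out. The other 6 members did not pass with this score.

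The naive score, built in the same way from 16 naive genes, spanned only -0.14 to 0.18, and its relations to the members rested on 1 gene. Dppa3, a maternal-effect factor of naive cells, was at 23.3 CPM in clone 19 against a median of 0.414, and it was the single naive gene called variable (edgeR adjusted p = 1.10e-23). With Dppa3 in the score, Fgf4 had r = 0.78 (permutation p = 0.00479, adjusted p = 0.0305, rho = 0.66, adjusted p = 0.166), Utf1 r = -0.73 (permutation p = 0.00943, adjusted p = 0.0377, rho = -0.34, adjusted p = 0.582) and Sox4 r = -0.71 (permutation p = 0.0156, adjusted p = 0.04995, rho = -0.77, adjusted p = 0.121). With Dppa3 left out of the score, an alternative added after the data were seen, r was 0.24 for Fgf4, -0.10 for Utf1 and -0.31 for Sox4, each with adjusted p = 0.770. Without Dppa3 the score of clone 19 was -0.04, where it had been the highest of the clones at 0.18. No member passed with the naive score in that setting, and 2 had passed with the ERK score and still did (adjusted p = 0.0458 for both). Of the 16 relations with both scores as first built, 5 passed by Pearson's r and 0 by Spearman's rho. The share of all tested genes that would pass with either score was not computed, so these counts are no result particular to the members.

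Of 25 other genes of the formative and primed program 24 were in the table and 23 tested, and 5 (21.7%, beside 7.68% of all tested genes) varied in the edgeR test, among them Dusp6, Lin28a, Sox11 and Etv1. Lin28a, an RNA-binding inhibitor of let-7 processing, was lowest in clone 19 at 49.8 CPM and highest in clone 20 at 445 (adjusted p = 8.90e-16). Dusp6, an ERK phosphatase, had 10.5 CPM in clone 19 and 136 in clone 16 (adjusted p = 3.22e-17). The most abundant of these genes, Tdgf1 (992 ± 110 CPM) and Rbpj (476 ± 93.5; SD, n = 11), did not pass.

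Among 10 relatives of the Sox, Zic and Otx members in the table, 6 were tested and 3 varied, where 7.68% of all tested genes did. Sox21, a SoxB2 factor, stood at 133 CPM in clone 16 against a median of 21.2 (adjusted p = 6.97e-17), and Sox11, the SoxC relative of Sox4, was lowest in clone 19 at 0.231 CPM and highest in clone 20 at 8.10 (adjusted p = 0.00206). Sox12 (46.5 ± 6.86 CPM) and Sox2 did not pass. In the FGF pathway list 25 of 31 genes in the table were tested and 7 varied, all of them feedback genes, ETS factors or Myc. Etv4 ran from 6.58 to 175 CPM, Spry4 from 4.68 to 134.5 and Dusp4 from 2.02 to 44.6, each lowest in clone 19 (edgeR adjusted p = 7.68e-34, 5.62e-33 and 1.58e-09). The members of the list with the highest means were Etv5 (582 ± 65.2 CPM), Ptpn11 (153 ± 7.15) and Spry2 (153 ± 43.2; SD, n = 11), and of these Spry2 varied.

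Genes whose pattern was most like each member over the 11 clones were found by r among genes averaging 5 CPM or more. For Otx2 they were Stk39 (r = 0.99), Arhgap12 (0.97) and Hnrnpf (0.97). For Sox3 they were Zfp423 (0.95), Mettl1 (0.94) and Epb41l3 (0.94), and for Sox4 Pom121 (0.93), Plxna3 (0.92) and Klhl11 (0.92). Beside Zic5 and Zic2 themselves, Zic2 was most like Agfg1 (0.94) and Simc1 (0.92), and Zic5 like B4galt2 (0.95) and Rhbdd1 (0.94). Fgf4 was most like Cfp (0.94), Atg13 (0.93) and Amd1 (0.90), Utf1 like Ints11 (0.92) and Pdk1 (0.92), and Fgf5 like Rpa1 (0.87), Wdr48 (0.84) and Ppp4r1 (0.83). These are the highest among 10353 or 10354 values of r, each from 11 points, and are a description with no test.

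Markers of other cell types were also uneven between clones, and their part in the results above was not tested. The summed level of 11 neural markers was lowest in clone 25 at 52.2 CPM and highest in clone 22 at 125, with 97.5 in clone 19 and 95.6 in clone 24. For the counts of variable markers here, the share over all tested genes was 7.68%. Of 4 tested neural markers 3 varied (Nes, Tubb3 and Pax6), Olig2 had 0 reads in all clones, and Neurog2 and Hes5 were at or below 0.0945 CPM. The 11 primitive endoderm markers summed to 606 CPM in clone 16, 713 in clone 17 and 742 in clone 19, the clones with the lowest Otx2, and to 392 to 550 in the other 8. Of 8 tested primitive endoderm markers 4 varied (Lama1, Sparc, Col4a1 and Fst). The sum was mostly matrix genes (Sparc and Lama1). Of the transcription factors in the list, Gata6 and Sox17 were at most 0.924 and 0.376 CPM. Gata4 reached 5.23 CPM, and Hnf4a ranged from 8.07 to 20.5. Primitive streak markers summed to 7.55 to 21.2 CPM (0 of 3 tested varied, with 1 at an unadjusted p under 0.05) and trophoblast markers to 51.5 to 116 (1 of 3, Krt8). Fibroblast markers summed to 4040 to 7524 CPM (1 of 6, Col1a1), most of it Fn1. Of the other fibroblast markers, Vim ranged from 161 to 351 CPM and Pdgfrb from 4.10 to 19.3. Thy1 reached 4.92 CPM, Col1a1 4.50, Twist1 4.10 and Col1a2 0.284, and Col3a1, Postn and Dcn were at or below 0.189 CPM.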

How the data were processed

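The deposited values are raw read counts per gene. Per the submitters' processing notes, the authors used TopHat 1.4.0 and Bowtie 0.12.7, and the builds named are mm9 and hg19. The deposited file's name gives Ensembl release 66 protein-coding genes. How reads were counted, with which tool, on which strand and with what treatment of multi-mapped reads, was not given in the sources used here. RNeasy RNA went into TruSeq RNA libraries, per the labels' protocols. The table held 0 rows that were not genes. Symbols matched 20777 IDs. Gene order and exon length (protein-coding transcripts) came from GENCODE on GRCm38, so no coordinates of the counts are given.

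The 12479 genes that averaged 1 CPM or more were tested in R 4.3.3 with edgeR 4.0.16: an intercept-only fit with trended dispersion and a goodness-of-fit chi-square test on 10 degrees of freedom, and a quasi-likelihood test of each clone against the other 10. DESeq2 1.42.0 gave alternatives. The p-values measure spread between libraries of clones. Correlations used Python 3.11.15, NumPy 2.4.6 and SciPy 1.17.1, with two-sided permutation tests. Tests were checked on simulated data. Promoter starts are RefSeq's. The 8 genes and all lists were chosen with earlier results of these data known. Named list genes are the 3 with the highest mean and up to 4 variable ones with the smallest p per list, and the 3 most like each member. Etv1, Gata6, Sox17, Olig2 and other marker genes were named after their values were seen. Some genes that the rule names are not reported here.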

Additional observations from a re-analysis of the deposited data

How the results depend on the processing

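Alternatives were DESeq2 size factors, other filters, dispersions and pseudocounts, a neighbour correction, and leaving out clones. The count of variable genes over the whole table was 959 and moved by less than 1.5 times, with 873 to 919 when 1 clone was left out and 665 without clones 16, 17 and 19. Of the tested members 5 varied. This was 3 of 5 at a mean of at least 5 CPM, where Sox3 and Sox4 are not tested, 2 of 7 without clones 16, 17 and 19 (Zic2 and Sox4), and 4 to 6 with 1 clone left out. The count of pairs of gene and clone was 293, 1444 with the DESeq2 Wald test, and 152 to 278 with 1 clone left out. For the members it was 0, 2 with the Wald test, and 0 to 0 with 1 clone left out. Of 28 pairs 6 correlated, 2 without clones 16, 17 and 19, 3 with a pseudocount of 5, and 3 to 9 with 1 clone left out. Of 16 relations with the scores, for which no share over all genes was computed, 5 passed, and 1 without clones 16, 17 and 19. That 1 was none of the 5 but Sox3 with the naive score (r = -0.90, permutation adjusted p = 0.0306). Over all clones Sox3 had r = -0.66 with that score (adjusted p = 0.0764), and -0.16 with Dppa3 left out of it (adjusted p = 0.770). The count was 2 with a pseudocount of 5 and 2 with Dppa3 left out of the naive score (added after the data were seen). With 1 clone left out it was 0 to 7 (0 without clone 19, 25 or 26). Of the 16 relations with an unadjusted p under 0.05, 2 changed sign in these settings, both without clones 16, 17 and 19: Otx2 with Zic5 to -0.35 and Otx2 with Fgf5 to -0.19. Utf1 with the ERK score also did so, to -0.13, without clones 19 and 26. Except where a setting removes clones or genes, the cause was not tested. Member levels on unscaled CPM moved by less than 1 SD. No paired analysis was possible because the labels give 1 group. Depth limits Fgf5 and Sox3, which are within a few reads of 0 in some clones.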
